A study of Mus musculus with 12 samples.

Results

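The strong distal peaks gained by 72 h of reprogramming were 10324 of the 170135 open regions called in control reprogramming cells (6.07%). A region was a member when its peak in control reprogramming cells (Rep_Zeo) had a fold enrichment of at least 5 and a -log10 q of at least 5, when it overlapped a peak of Zfp266 KO reprogramming cells (Rep_Zfp266), when it overlapped by 1 bp no peak of control MEFs (MEF_Zeo) and none of Zfp266 KO MEFs (MEF_Zfp266), and when its midpoint lay more than 1 kb from every start site of a protein-coding gene. Fold enrichment is the ATAC-seq signal over the background that the peak caller expects there, and q is its p-value adjusted for multiple testing. In the broad mode used here both are means over all positions of a peak and not values at a summit, so they also depend on how wide the peak was called. The fold minimum left 20325 peaks and the q minimum removed none of them. Among members the lowest -log10 q was 27.5. The overlap with a Rep_Zfp266 peak left 20315 peaks, the absence of a MEF peak left 10412, and the distance from start sites left 10324. These values chose the members and were used below only to describe them. Just inside the fold minimum lay regions near Zfp386 (5.0003), G6pd2 (5.0005) and Basp1 (5.0005), and just outside it lay regions near Pxdc1 (4.9995), Fasl (4.9999) and Il13ra2 (4.9999), so the edge of the set is continuous with weaker gained regions.

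The 12 Omni-ATAC-seq libraries, each from 50000 cells, map open chromatin in 4 groups of 3. All groups came from passage 2 mouse embryonic fibroblasts (MEFs) labelled as strain 129. They were made from E12.5 chimeric embryos of ES cells with Cas9 and a doxycycline-inducible polycistronic cassette of the reprogramming factors Oct4, Sox2, Klf4 and c-Myc (OSKM), so that host cells without the transgenes may be part of the MEF groups. Control cells received a non-targeting sgRNA and KO cells an sgRNA against Zfp266, a KRAB zinc finger gene, and both were harvested 96 h after transduction as sorted populations rather than clones. MEF groups stayed in MEF medium without doxycycline, while reprogramming groups spent the last 72 h in ES cell medium with doxycycline (300 ng/ml) and vitamin C (10 µg/ml) and were sorted for the reporter of the induced cassette. They were also plated as a minority among wild-type MEFs, per the methods of the study, which the MEF groups were not, so that OSKM, medium, vitamin C, co-culture and sort cannot be told apart as sources of a gained peak.

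The data came as 1 peak list per group, called on the merged reads of its 3 libraries, which held 661623 peaks in all, and as tables of read counts per library at the intervals that the study listed for the KO. Values from the peak lists therefore had no replicate error, their fold enrichment depends on the depth of the merged reads, which is not known here, and the loss of Zfp266 itself was not checked, because accessibility does not measure it. Reads in the listed reprogramming intervals ranged from 141616 to 324141 per library. Nothing in the labels says that libraries of a group came from separate cultures, so p-values measure the spread between these libraries. In bulk cells such as these, fewer open cells and less accessibility per cell cannot be told apart.

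In somatic cells the DNA of pluripotency enhancers is wrapped in closed chromatin. OCT4, SOX2 and KLF4 can bind part of their motifs in such chromatin early in reprogramming, while enhancers of fibroblasts, many of them bound by AP-1 factors such as FOS and JUN, lose accessibility. Distal open regions are commonly enhancers, and a portion of them lie in copies of transposable elements that carry binding motifs with them.

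Regions were compared with 3 sets chosen without reference to sequence. The first held 6429 equally strong distal Rep_Zeo peaks that overlapped a MEF peak and a Rep_Zfp266 peak (regions open in both contexts). The second held 7683 equally strong distal MEF_Zeo peaks that overlapped a MEF_Zfp266 peak and no reprogramming peak (lost regions), and the third held all 153625 distal Rep_Zeo peaks. Shares are given with Wilson 95% intervals, which cover counting error only, since regions with a common sequence are not independent.

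The DNA of 4 members shows the motifs that the comparison turned on. In each 300-base stretch (GRCm38, plus strand, from the reference genome, around the middle of the peak) capitals mark exact matches on either strand to the OCT octamer ATGCAAAT, to the SOX string CCNTTGT, to the KLF string GGGNGNGG, to the AP-1 string TGANTCA and to the ESRRB string CAAGGTCA. The member of rank 6 by fold lies in an intron of Lrrk2 at chr15:91735415-91735714 and held SOX, KLF and AP-1 strings. The member near Zfp42, which encodes the pluripotency marker REX1, lies at chr8:43320765-43321064 with 2 copies of the KLF string in its form GGGTGTGG. The member in an intron of Lef1, a transcription factor of the Wnt pathway, lies at chr3:131126046-131126345 and was more open in KO. The member in an intron of Lingo2, a neuronal membrane protein gene, lies at chr4:36367234-36367533 and was more closed in KO.
Rank 6: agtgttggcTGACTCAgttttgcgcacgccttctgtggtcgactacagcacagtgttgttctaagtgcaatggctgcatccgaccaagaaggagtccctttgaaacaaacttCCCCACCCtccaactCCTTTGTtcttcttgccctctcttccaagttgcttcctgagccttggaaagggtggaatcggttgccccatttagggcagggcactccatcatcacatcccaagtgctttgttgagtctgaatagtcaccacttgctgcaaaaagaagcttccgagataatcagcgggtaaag
Zfp42: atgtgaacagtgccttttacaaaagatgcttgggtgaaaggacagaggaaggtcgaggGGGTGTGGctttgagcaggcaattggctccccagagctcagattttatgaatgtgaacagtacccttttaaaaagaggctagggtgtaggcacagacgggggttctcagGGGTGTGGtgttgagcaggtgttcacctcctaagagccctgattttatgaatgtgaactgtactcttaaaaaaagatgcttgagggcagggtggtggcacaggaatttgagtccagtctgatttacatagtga
Lef1: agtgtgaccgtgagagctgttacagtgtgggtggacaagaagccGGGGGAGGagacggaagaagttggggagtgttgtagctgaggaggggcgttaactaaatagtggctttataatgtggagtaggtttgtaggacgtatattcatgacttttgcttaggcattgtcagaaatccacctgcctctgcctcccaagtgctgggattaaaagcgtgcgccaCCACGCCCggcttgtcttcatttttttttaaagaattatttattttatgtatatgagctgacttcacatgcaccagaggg
Lingo2: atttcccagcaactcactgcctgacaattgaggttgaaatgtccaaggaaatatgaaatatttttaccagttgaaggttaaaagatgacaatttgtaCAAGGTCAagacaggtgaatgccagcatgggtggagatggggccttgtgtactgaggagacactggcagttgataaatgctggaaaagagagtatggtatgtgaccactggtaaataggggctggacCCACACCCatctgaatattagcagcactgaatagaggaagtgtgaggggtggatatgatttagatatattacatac
A match to a string is a description of the sequence and not evidence that a factor was bound.

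Members carried the SOX string more often than any of the comparison sets, and lost regions carried the AP-1 string most often. In the central 300 bp, 32.7% of members held CCNTTGT (31.8 to 33.6), against 24.3% of regions open in both contexts (23.2 to 25.3), 12.9% of lost regions (12.1 to 13.6) and 21.4% of all distal Rep_Zeo peaks (21.2 to 21.6). Both main forms of the string followed this order, with CCATTGT in 15.1% of members and 3.33% of lost regions, and CCTTTGT in 15% and 5.53%. The AP-1 string was found in 20.2% of members (19.4 to 21.0), in 33.2% of regions open in both contexts (32.1 to 34.4) and in 45.7% of lost regions (44.5 to 46.8), against 17.6% of all distal peaks (17.4 to 17.7). The order of members, regions open in both contexts and lost regions was the same in windows of 150 and 600 bp and over the whole peak. It was also the same with bases masked as repeats left out, where SOX was found in 22.8%, 20.8% and 11.4% and AP-1 in 16%, 29.1% and 41.2%. The SOX difference between members and regions open in both contexts was smaller there.

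The KLF string GGGNGNGG was more frequent in members than in lost regions and less frequent than in the other reprogramming peaks, but its stricter form was not less frequent than there. It was present in 29.9% of members (29.0 to 30.8) and in 15.4% of lost regions (14.6 to 16.2), while regions open in both contexts held it in 35.0% (33.9 to 36.2) and all distal Rep_Zeo peaks in 31.7% (31.4 to 31.9). In its stricter form GGGTGTGG the string was found in 6.69% of members (6.23 to 7.19), 5.93% of regions open in both contexts (5.37 to 6.53) and 1.24% of lost regions (1.01 to 1.51). A SOX or a KLF string was held by 53.9% of members, 51.4% of regions open in both contexts and 26.4% of lost regions, and strings of both kinds by 8.7%, 7.89% and 1.89%. With masked bases left out KLF was found in 17.2% of members, 25.6% of regions open in both contexts and 9.81% of lost regions. None of the OCT, SOX, KLF and AP-1 strings was found in 34.6% of members, 31.4% of regions open in both contexts, 37.6% of lost regions and 42.5% of all distal peaks.

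Exact matches to the OCT octamer and to the OCT-SOX composite motif were rare in the central 300 bp in all sets. Looser forms of these motifs were not searched. The octamer ATGCAAAT was found in 3.15% of members (2.83 to 3.5), 2.55% of regions open in both contexts (2.19 to 2.97) and 1.99% of lost regions (1.7 to 2.33). The OCT-SOX composite motif, which contains a form of the octamer, had an exact match in 8 members (0.0775%, 0.0393 to 0.153), in 3 regions open in both contexts and in 1 lost region. The SOX string together with the octamer, at any spacing, was found in 0.901% of members (0.736 to 1.1), against 0.482% of regions open in both contexts (0.34 to 0.684) and 0.234% of lost regions (0.148 to 0.37).

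The CTCF motif, the sequence of the factor that anchors chromatin loops, was nearly missing from members. It was matched in 14 of them (0.136%), against 4.06% of regions open in both contexts and 2.19% of all distal Rep_Zeo peaks, while lost regions held it in 0.247%. Of the strings of other factor families, GCCNNNGGC (TFAP2) was found in 3.39% of members against 7.58% of regions open in both contexts, and the E-box CACGTG, which MYC and other basic helix-loop-helix factors bind, in 2.18% against 4.08%. The TEAD string CATTCCA, at 5.56%, and the RUNX string TGTGGTT, at 8.51%, were near their shares in all distal peaks (5.78% and 8.77%) and below those in lost regions (10.6% and 14.4%). GRHL (AACCNGTT) was found in 1.94% of members, FOX (TGTTTAC) in 4.08% and ESRRB in 1.48%. The intervals of these 3, of TEAD and of RUNX overlapped those of the regions open in both contexts.

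**Figure D1:**
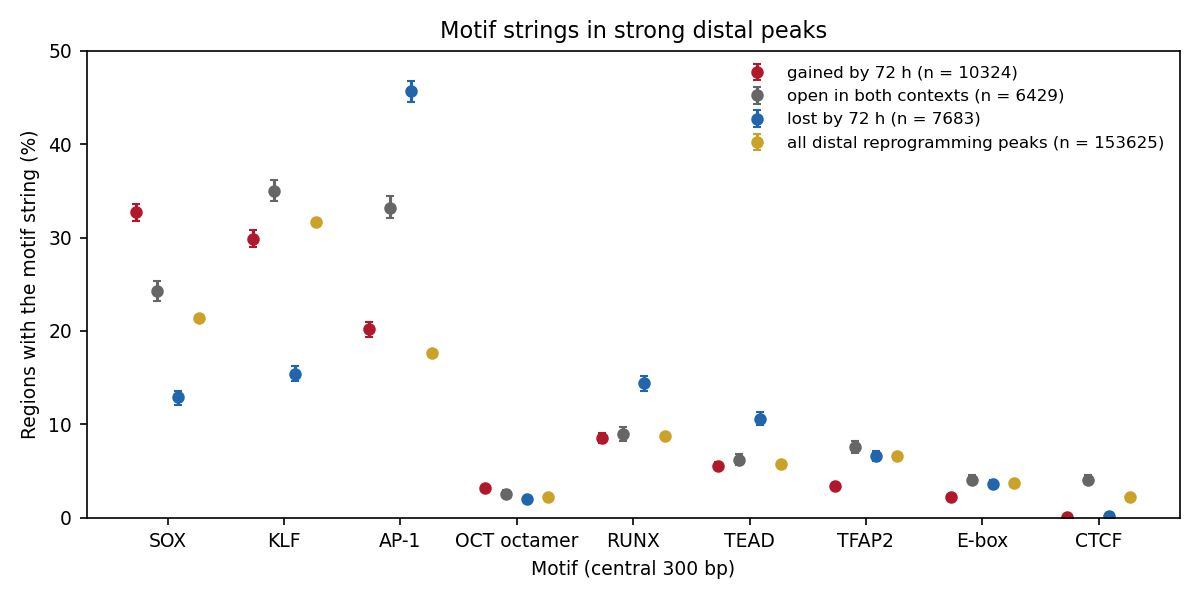
Share of regions (percent, vertical axis) whose central 300 bp hold each string (horizontal axis), in members, in strong distal peaks open in both contexts, in lost regions and in all distal Rep_Zeo peaks, with Wilson 95% intervals for counting error. Members lie highest for SOX (32.7%) and lost regions highest for AP-1 (45.7%).

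The strings were not spread evenly over the members. The SOX string lay within the 50 bp before the peak midpoint in 7.43% of members and in the 50 bp that begin 500 bp before it in 2.5%. In lost regions the same bins held it in 2.43% and 2.51%, with no rise at the middle. The KLF string went from 3.57% at 500 bp to 6.71% at the middle in members and stayed at 2.9% and 2.95% in lost regions. The AP-1 string was centred in both sets, from 1.24% to 4.45% in members and from 1.71% to 10.8% in lost regions. Peak midpoints are not summits, so the width of these profiles includes the asymmetry of the broad peaks.

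**Figure D2:**
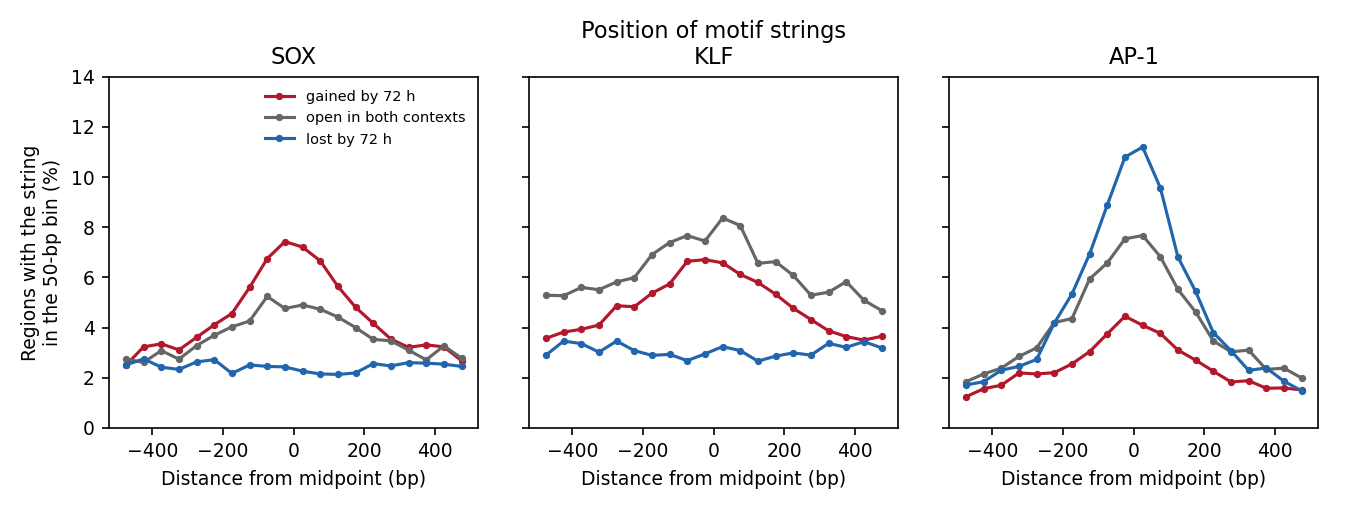
Share of regions (percent, vertical axis) with the SOX, KLF or AP-1 string in each 50-bp bin, by distance from the peak midpoint in bp (horizontal axis), in members, in regions open in both contexts and in lost regions. SOX reaches 7.43% in the bin before the midpoint in members and 2.43% in lost regions, whereas AP-1 reaches 4.45% and 10.8% there.

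Stronger gained regions held the SOX string more often and lay farther from genes. Over all distal gained Rep_Zeo peaks, members or not, SOX was found in 18% of the 8028 with a fold under 2, in 26.7% of the 9800 between 4 and 5, in 31.1% of the 5618 between 5 and 6 and in 38.3% of the 475 with a fold of 8 or more (34.1 to 42.8). AP-1 went from 10.0% to 17.0% below the fold minimum and was between 18.4% and 22.7% above it. KLF moved the other way among members, from 31.2% between 5 and 6 to 25.7% at 8 or more (22.0 to 29.8). The median distance to the nearest protein-coding start site was 15202 bp in the weakest bin, 59480 bp between 4 and 5 and 137840 bp in the strongest. Median GC content fell from 47.7% in the weakest bin to 41.0% in the strongest. Median peak length rose from 433 bp in the weakest bin to 864 bp between 5 and 6 and was lower again, at 679 bp, in the strongest. The part of length and GC content in these gradients was not tested.

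**Figure D3:**
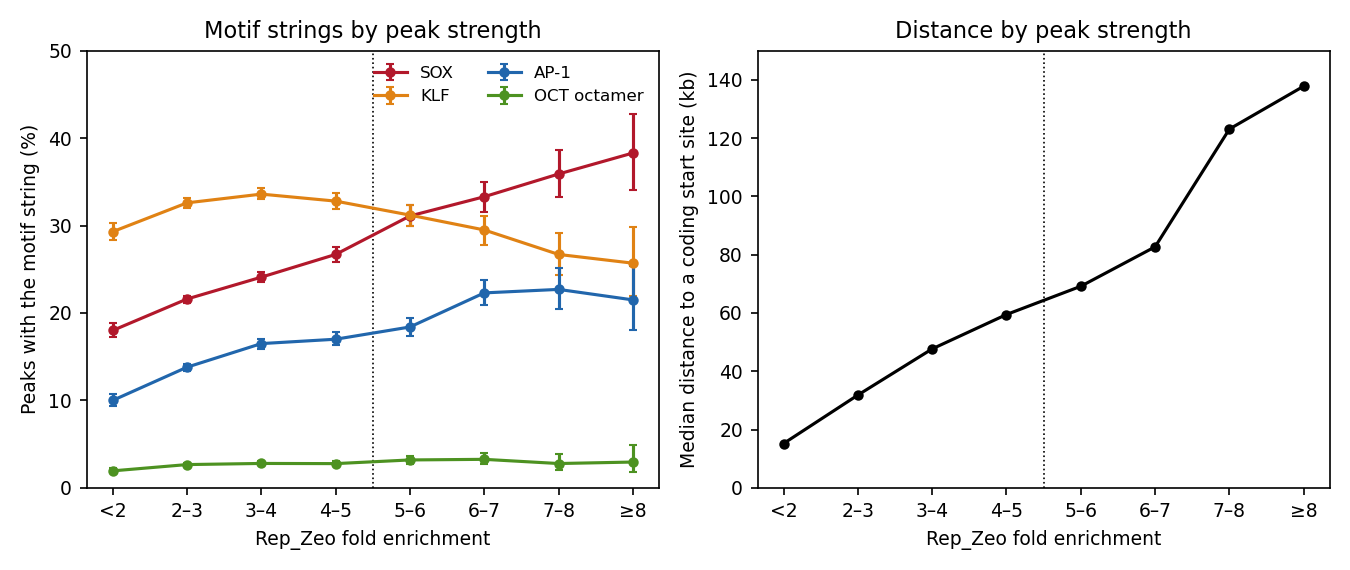
Gained distal Rep_Zeo peaks in bins of Rep_Zeo fold enrichment (horizontal axes), with the share that holds the SOX, KLF, AP-1 and octamer strings on the left (percent, Wilson 95% intervals) and the median distance to a protein-coding start site on the right (kb); dotted lines mark the fold minimum of 5. SOX goes from 18% in the weakest bin to 38.3% in the strongest, and KLF from 31.2% to 25.7% above the line.

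Members were remote, AT-rich and often repetitive. Their median distance to a protein-coding start site was 79755 bp, against 41241 bp for regions open in both contexts and 68480 bp for lost regions. No protein-coding start lay within 50 kb of 60.7% of members (59.8 to 61.6), against 45.1% of regions open in both contexts (43.9 to 46.3), and none within 500 kb of 11.3% (10.7 to 12), against 3.5% (3.08 to 3.98) and, in lost regions, 6.03%. By annotation 60.5% of member midpoints were intergenic, 37.7% intronic and 1.81% exonic. The central 300 bp had a median GC content of 41.3%, against 46.0% in regions open in both contexts and 43.7% in lost regions, and held no CpG in 21.4% of members, against 10.2% and 11.8%. At least 50% of that window was masked as repeats in 21.0% of members (20.2 to 21.7), in 7.08% of regions open in both contexts, in 2.9% of lost regions and in 17.2% of all distal Rep_Zeo peaks.

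The nearest MEF peak was a median of 6892 bases from a member, against 1149 bases over all distal Rep_Zeo peaks, a set that includes peaks at MEF peaks. A MEF peak lay within 1 kb of 8.79% of members, against 48.4% of all distal Rep_Zeo peaks, and within 50 kb of 90.3%, against 96%. The rule allows no overlap with a MEF peak and so fixes part of this difference.

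The strongest member, with a fold of 12.4, lay in an intron of Pak1 at chr7:97893548-97894042 and held none of the searched strings. It had a fold of 10.5 in the KO list. The member of rank 2 (fold 12.1, KO 12.1) lay at chr8:5617410-5617883, 512296 bp upstream of Slc10a2, and held a SOX string. Rank 3 lay in an intron of Zfp407 (fold 11.5, KO 9.11), and ranks 4 and 5 were intergenic near Klhl1 (11.4, KO 11.4) and Crispld1 (11.4, KO 9.53), all with a SOX string. The members of rank 6 and 7 lay in introns of Lrrk2, a kinase gene (11, KO 11.4), and Lmbr1 (10.9, KO 9.94), the gene whose introns carry the limb enhancer of Shh, and each held SOX, KLF and AP-1 strings. Rank 8 near Ptchd4 (10.8, KO 11.1) held SOX and KLF, while rank 9 near Pcdh17 (10.8, KO 10.7) held none and rank 10 near 4931408C20Rik (10.8, KO 10.8) held KLF and RUNX strings. A SOX string was thus present in 7 of the 10.

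A portion of members were copies of the same sequence. By pairwise alignment of the central 300 bp (at least 150 aligned bases at 75% identity), 2136 members (20.7%, 19.9 to 21.5) had at least 1 relative in the set, against 6.13% of regions open in both contexts (5.57 to 6.74) and 2.47% of lost regions (2.15 to 2.84), sets that were smaller. They fell into 105 families, 10 of which had 20 or more members, named F1 to F10 here by size. The families are chains of pairwise matches and were not matched to a repeat annotation, so no element name is given.

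F1, the largest family, held 642 members on 20 chromosomes, was masked over a median of 96.3% of its windows, and carried the SOX string in 77.1% of members but the KLF string in 5.61%. A representative copy at chrX:70291378-70291677, chosen after its values were seen, is printed with the copies near Tet2 (chr3:133438135-133438434), which encodes a 5-methylcytosine dioxygenase, and Snai2 (chr16:14685585-14685884), which encodes a repressor of epithelial genes. The capitals mark the SOX string.
F1 representative: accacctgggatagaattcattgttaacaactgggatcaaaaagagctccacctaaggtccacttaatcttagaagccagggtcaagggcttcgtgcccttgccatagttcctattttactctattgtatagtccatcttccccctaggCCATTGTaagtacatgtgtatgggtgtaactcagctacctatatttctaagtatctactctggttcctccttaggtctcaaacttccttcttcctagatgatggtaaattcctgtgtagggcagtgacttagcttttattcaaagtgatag
Tet2: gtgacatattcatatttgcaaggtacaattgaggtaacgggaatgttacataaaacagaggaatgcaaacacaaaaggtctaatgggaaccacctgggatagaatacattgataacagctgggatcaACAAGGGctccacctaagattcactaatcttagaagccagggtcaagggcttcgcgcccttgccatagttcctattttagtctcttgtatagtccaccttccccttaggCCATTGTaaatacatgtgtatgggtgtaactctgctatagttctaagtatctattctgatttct
Snai2: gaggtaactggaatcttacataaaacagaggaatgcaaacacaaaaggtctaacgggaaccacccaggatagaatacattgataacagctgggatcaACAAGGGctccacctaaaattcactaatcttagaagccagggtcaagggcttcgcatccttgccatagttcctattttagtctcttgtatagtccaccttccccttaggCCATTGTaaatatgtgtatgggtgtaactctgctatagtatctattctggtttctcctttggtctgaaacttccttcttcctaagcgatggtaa
The representative aligned to the Tet2 copy over 217 bases at 89.4% identity and to the Snai2 copy over 256 bases at 84.0%, and the Tet2 and Snai2 copies aligned to each other over 270 bases at 93.3%. All 3 held CCATTGT.

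Most copies of F1 in the genome were not members, but many of them were open at 72 h. The representative had 2754 copies in the reference (median identity 87.5%). Among the 2250 that overlapped no member, and were therefore not chosen by the rule, 30.9% overlapped a Rep_Zeo peak and 3.64% a MEF_Zeo peak. The representative matched 3.79% of members, 0.358% of regions open in both contexts, 0.013% of lost regions and 0.556% of all distal Rep_Zeo peaks, an order that its choice among members favours. Reads that fit several copies can be placed in more than 1 way. How such reads were handled is not given in the sources used here, and its part in these values was not tested.

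The other large families differed in their strings. F2 (582 members) and F3 (299) carried KLF in 45.2% and 46.2% of members and SOX in 20.3% and 26.8%. Copies outside members are the ones compared here. How much of the genome each peak list covers was not compared, so these shares have no baseline. Of the 21735 such copies of F2, 20.4% overlapped a Rep_Zeo peak and 1.89% a MEF_Zeo peak, and of those of F3 5.42% and 1.03%. F4 (97 members) carried SOX in 54.6% and the ESRRB string in 17.5%, against 1.48% for ESRRB in all members, and 22.8% of its 803 copies overlapped a Rep_Zeo peak against 4.36% a MEF_Zeo peak. F6 (34 members) carried AP-1 in 85.3% and KLF in 67.6%, with 29.8% of its 900 copies in a Rep_Zeo peak and 7.78% in a MEF_Zeo peak. F9 (28 members) also carried AP-1 in most members (78.6%). F8 (29 members) was 96.6% B1 and F10 (23 members) 87.0% B2 by match of the central 600 bp to consensus sequences of these short interspersed elements. Of the 125435 copies of the F8 representative 4.85% overlapped a Rep_Zeo peak and 2.62% a MEF_Zeo peak. F5 (39 members) had 43724 copies, of which 0.723% overlapped a Rep_Zeo peak.

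**Figure D4:**
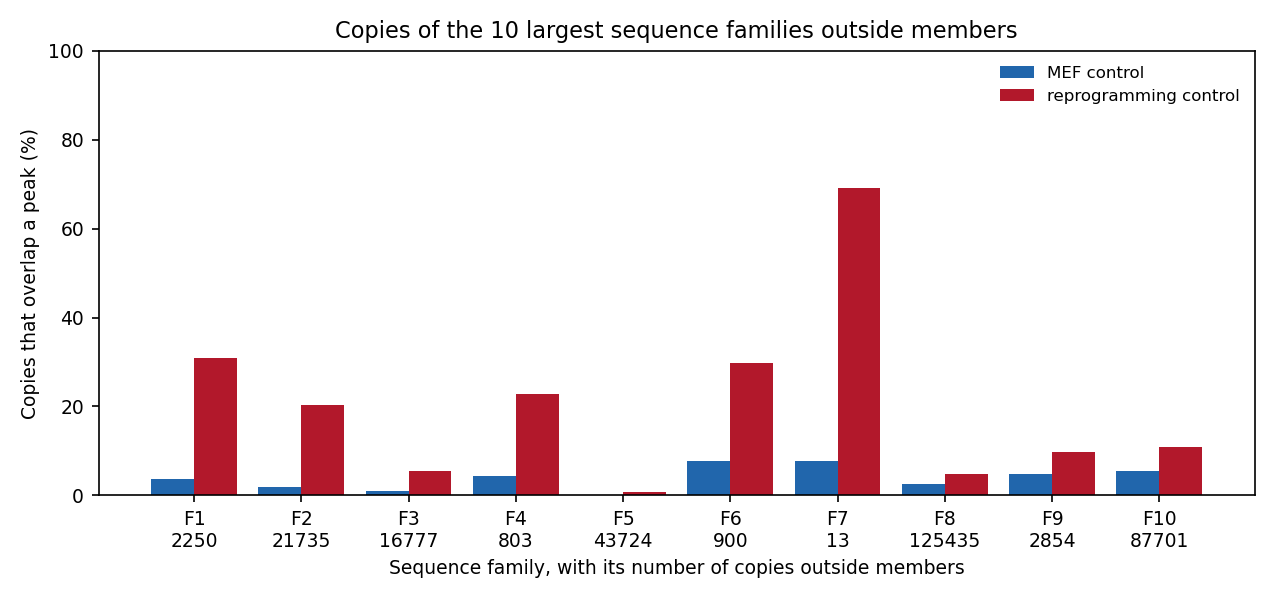
Share of the genomic copies of each family representative that overlap no member (percent, vertical axis) and overlap a peak of control MEFs or of control reprogramming cells, for families F1 to F10 with the number of such copies under each. The control reprogramming share is above the control MEF share in each of the 10, with 30.9% against 3.64% in F1, 4.85% against 2.62% in F8 and, over 13 copies, 69.2% against 7.69% in F7. How much of the genome each peak list covers was not compared, so the shares have no baseline.

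Without members that had a relative, the SOX string was found in 30.2% of the other 8188 (29.3 to 31.2) and KLF in 30.2% (29.2 to 31.2). At least 50% of the window was masked in 5.65% of them (5.17 to 6.18) and in 79.6% of the members with a relative (77.8 to 81.2). Their median distance to a protein-coding start site was 78928 bp. In the central 600 bp, B1 was matched in 3.04% of members (2.73 to 3.39) and B2 in 1.9% (1.65 to 2.18), close to their shares in regions open in both contexts (2.92% and 2.05%) and below those in all distal Rep_Zeo peaks (5.74% and 5.49%). Over all distal gained peaks the B1 share fell with fold, from 11.3% under 2 to 2.32% at 8 or more.

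Genes of large intergenic territories had the most members nearest to them. Members were nearest to 4802 protein-coding genes, 2799 of them with 1 member and 91 with 10 or more. Pcdh17, a protocadherin, had 27 members and Adgrl3, an adhesion receptor, 24, followed by Ccser1 with 22. Cdh8, Mdga2, Pcdh20, Rbfox1, Tenm2 and Tenm4, all of them but the splicing factor gene Rbfox1 coding for cell adhesion proteins of neurons, had 20 each, and none of Cdh8, Mdga2, Pcdh20 and Rbfox1 had a region open in both contexts. The stretch of genome nearest to Ccser1 held 14.2 members per Mb and that of Pcdh17 8.0, against 3.79 per Mb over the genome. Members less than 50 kb apart formed 1701 chains that held 3933 members (38.1%). The longest had 8 members each, at chr6:61055324-61230898 by Ccser1 and at chr3:113230122-113375638 by the amylase genes Amy2a2, Amy2a5 and Amy2a4, where 7 of 8 held the SOX string. The windows of the amylase chain were masked as repeats over a median of 70.7%. Whether its members are copies of 1 sequence, and how reads were placed among them, was not tested. A chain of 7 spanned Elp4 and Pax6 at chr2:105719441-105878499 with the SOX string in 6, another of 7 lay near Gm11146 at chr16:77565890-77744221, and 6 lay near Cdh18 at chr15:23304966-23429127. Other chains of 6, near Tmem182, Ddhd1 and Chmp2b among them, tied with the last.

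Lists of genes of the cell types that reprogramming leaves, reaches or passes were searched for a member within 50 kb of a start site. Over all 21829 protein-coding genes 5489 (25.1%) had one, 24.4% had a region open in both contexts and 19.2% a lost region. The lists are short and were chosen with results of these data known, so their counts are a description.

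Of 14 core pluripotency genes 2 had a member, against 5 with a region open in both contexts (Lin28a, Nanog, Pou5f1, Tdgf1 and Utf1). The member near Otx2, a factor of the primed state, had a fold of 6.47 (KO 5.63) and lay 23931 bp downstream of its start, with 2 more members in reach. Of 18 naive pluripotency genes 6 had a member, 6 a region open in both contexts and 7 a lost region. The F1 copy near Tet2 had the highest fold, 7.61 (KO 6.78), followed by a member in an intron of Ncoa2 16860 bp upstream of Prdm14, which encodes a repressor of differentiation genes (6.37, KO 6.34). The members near Fbxo15, an early reporter gene of reprogramming, and Zfp42 had folds of 5.71 (KO 5.55) and 5.59 (KO 6.3).

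Neural progenitor genes had a member in 7 of 14, against 4 with a region open in both contexts and 1 with a lost region. The member near Pax6, a factor of eye and brain development, lay in an intron of Elp4 and had a fold of 6.43 (KO 5.67). The member 29736 bp downstream of the start of Fabp7, a lipid-binding protein of radial glia, had a fold of 5.75 (KO 5.18), and that upstream of Olig2, a factor of motor neurons and oligodendrocytes, 5.57 (KO 5.81).

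Of 30 epithelial junction and keratin genes 6 had a member and 14 a region open in both contexts, Cdh1, Krt8 and Krt18 among them. The named members lay near the tight junction genes Cldn6 (6.83, KO 6.67) and Ocln (6.21, KO 4.44), near Dsp, a desmosome gene (5.48, KO 5.72), and near Grhl2, an epithelial transcription factor (5.46, KO 4.96). Of 16 genes of stratified epithelium 5 had a member and 5 a region open in both contexts, with 1 region of fold 7.19 (KO 6.74) in reach of both Krt14 and Krt17, 1 of 6.75 (KO 6.6) near Ly6d and 1 of 5.99 (KO 4.92) in an intron of Trp63, the master factor of this tissue.

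Of 22 fibroblast and mesenchymal genes 6 had a member (27.3%, against 25.1% of all protein-coding genes), 7 a region open in both contexts and 7 a lost region. The member 18228 bp upstream of Zeb2, a repressor of epithelial genes, had a fold of 8.29 (KO 8.21), that upstream of Col3a1, a collagen gene, 7.92 (KO 7.86), the F1 copy near Snai2 6.11 (KO 5.41) and the member near Prrx1, a mesenchymal transcription factor gene, 5.36 (KO 4.77). Of 16 germline genes 4 had a member and 8 a region open in both contexts. They were Ddx4, an RNA helicase of germ cells (6.84, KO 6.38), Asz1 (6.12, KO 6.05) and Mov10l1 (5.04, KO 5.51), both of the piRNA pathway, and Sycp1, of the synaptonemal complex (5.1, KO 5.61).

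Most members were called with a similar fold in Zfp266 KO cells. The ratio of the Rep_Zfp266 to the Rep_Zeo fold had a median of 0.970, with 5% of members under 0.795 and 5% over 1.12, and the KO fold reached the minimum of 5 in 80.8%. Over members the folds of both lists had Pearson's r of 0.81 and Spearman's rho of 0.79, a description over regions that share their libraries. The ratio was under 1 in 64.4% of members and in 63.4% of the regions open in both contexts. Members were chosen by their value in control cells, so no direction was read from these shares. With the roles of the lists exchanged, the same rule chose 9484 peaks from Rep_Zfp266, of which 87.6% overlapped a member, while 80.5% of members overlapped one of them. The lowest ratios were found near Aatf (5.11, KO 2.96, ratio 0.581), Ankib1 (0.586), Zbtb17 (0.593), Fez1 (0.594) and Kif26b (0.601), and the highest near Bche (5.06, KO 7.35, ratio 1.45), Cntnap2 (1.44), Erc2 (1.43), Zfp114 (1.41) and Zbtb14 (1.40). Only the member near Fez1 lay at an interval with counts per library. There KO was above control (log2 fold change 0.63), opposite to its ratio, over an interval longer than the member.

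Counts per library were held for the intervals listed as different in KO reprogramming cells, and there the libraries could be compared. By edgeR with Benjamini-Hochberg adjustment over all 273256 intervals, 59 members (0.571%, 0.443 to 0.736) lay at an interval that was more open in KO, against 0.557% of all intervals, and 10 members (0.0969%, 0.0526 to 0.178) at an interval more closed, against 0.0315%. Regions open in both contexts were at a more open interval in 0.42% (0.289 to 0.61) and at a more closed one in 0.124% (0.0631 to 0.245). The share of members more open in KO was thus close to that of all intervals. Intervals outside the tables are counted as not called. The edgeR fit used only the 1608 listed intervals, which the authors had already chosen by their own test. It called 1522 of them more open and 86 more closed, so the calls repeat that choice and are not a second test. Their p-values do not allow for the choice and serve here to rank intervals. Control and KO libraries did not overlap at any of these intervals, as the listing itself favours. These calls rest on size factors recovered from the deposited normalised counts. With TMM scaling over the listed intervals alone, which nearly all move 1 way, 52 of the 59 took the other sign, while the 10 kept theirs.

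The median log2 fold change at the more open members was 0.62 (0.35 to 1.27), against 1.03 over all 1522 intervals more open in KO, and that of the 10 more closed members was -0.59 (-0.76 to -0.49), against -0.61 over all 86. Members were chosen for a high value in control cells, so nothing was read from these differences. At the 59 intervals the median of the mean normalised counts was 196 in control and 342 in KO reprogramming cells, and 7.3 over the 6 MEF libraries (2.14 to 176). At the 10 it was 254, 172 and 5.46. The low MEF values follow from the rule. The highest was at the interval near Fez1 (MEF 176, control 99.4), which is longer than the member inside it and held the member with 1 of the lowest peak fold ratios. A member covered at least 80% of its interval in 40 of the 59, and under 50% in 10, so that for those the counts include neighbouring DNA. In the peak lists the ratio of the KO to the control fold was above 1 in 33 of the 59 (median 1.02) and in 0 of the 10 (median 0.864).

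The member 54444 bp upstream of Il6, a cytokine gene, had the smallest p. Its interval (chr5:29957933-29959047) had normalised counts of 171, 148 and 174 in the control libraries and of 397, 410 and 365 in the KO libraries, with a mean of 5.41 over the MEF libraries. Every KO library was above every control library, with a log2 fold change of 1.27 (SE 0.09) and an adjusted p of 1.83e-31 by edgeR. The member in an intron of Lef1, printed above, had 170, 161 and 162 in control and 336, 347 and 345 in KO (log2 fold change 1.06, SE 0.09, edgeR adjusted p = 3.51e-22), and fully matched its interval. The interval near Trim39, a RING domain protein gene, had 301, 328 and 304 in control and 575, 545 and 576 in KO (0.86, SE 0.07, edgeR adjusted p = 8.77e-23). The interval in an intron of Psip1, which encodes a chromatin-binding coactivator, had 154, 119 and 153 in control and 254, 300 and 321 in KO (1.04, SE 0.1, edgeR adjusted p = 4.35e-18). The remaining 6 of the 10 smallest p-values belonged to intervals near Phactr1, Lypla1, Mms22l, Tspan5, Lekr1 and Ncor1, with log2 fold changes of 0.92, 1.0, 0.96, 0.87, 1.11 and 0.78. The member at Phactr1 is shorter than its interval, and its own peak fold was lower in KO (5.28, KO 3.89). The members at Lypla1 and Mms22l were of families F3 and F4, and those at Tspan5 and Ncor1 of F8.

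Among the more closed members, the interval in an intron of Slc39a11, a zinc transporter gene, had 313, 310 and 343 in control and 198, 219 and 230 in KO (log2 fold change -0.59, SE 0.09, edgeR adjusted p = 8.03e-08). The interval in Lingo2, printed above, had 219, 195 and 187 in control and 139, 89.8 and 133 in KO (-0.72, SE 0.12, edgeR adjusted p = 4.08e-07), and its fold was 7.45 in control and 5.54 in the KO peak list. The interval near Cox10, a cytochrome c oxidase assembly gene, had 174, 188 and 183 in control and 92.4, 129 and 105 in KO (-0.76, SE 0.12, edgeR adjusted p = 3.7e-07), the largest fall of the 10. The lower groups did not overlap the higher ones in these 3 cases. The others lay near Iqsec1 (-0.59), Tpm3-rs7 (-0.56), March1 (-0.51), A730009L09Rik (-0.49), Kcnk2 (-0.68), Gk2 (-0.51) and C1qtnf3 (-0.67).

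**Figure D5:**
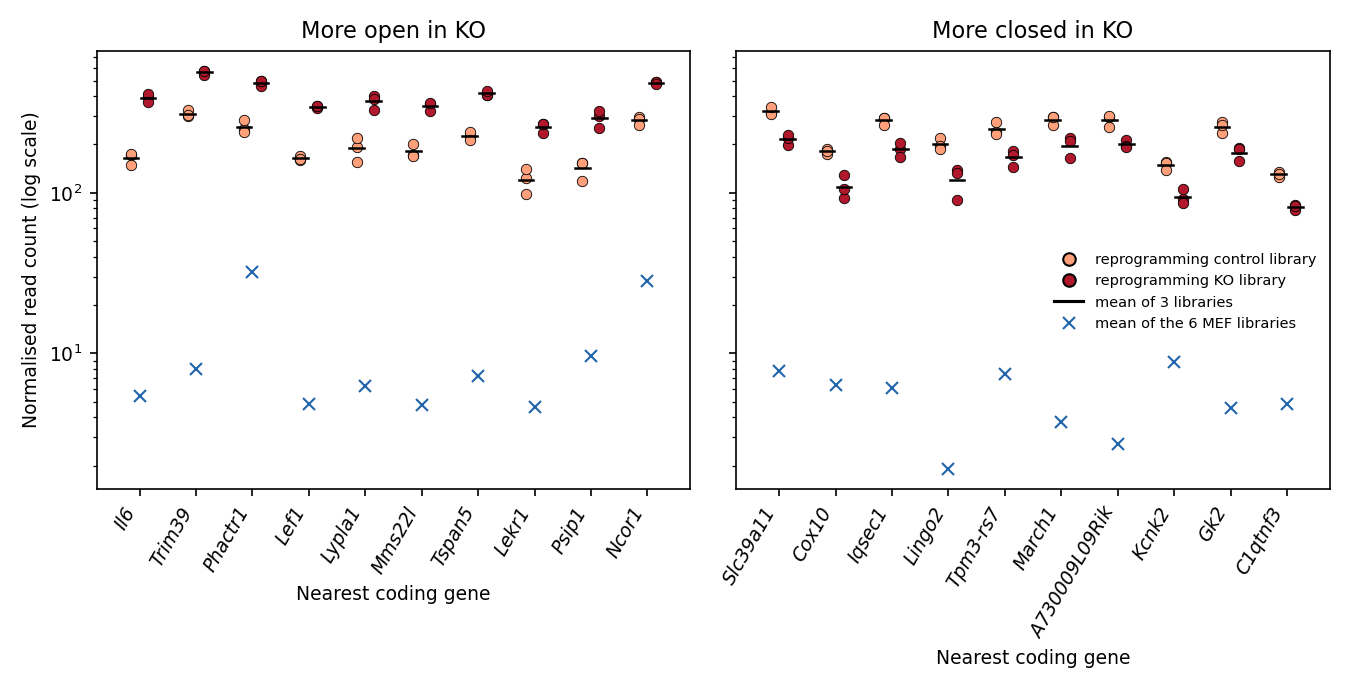
Normalised counts (log scale, vertical axis) at the intervals of the 10 more open and the 10 more closed members with the smallest edgeR p, named by the nearest protein-coding gene; points are the 3 control and 3 KO reprogramming libraries, lines their means and crosses the mean of the 6 MEF libraries. Control and KO points do not overlap at any interval, with 148 to 174 against 365 to 410 near Il6 and 187 to 219 against 89.8 to 139 near Lingo2, but with TMM scaling over the listed intervals 52 of all 59 more open members take the other sign.

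B1 elements were frequent among the more open members. B1 was matched in 28 of the 59 (47.5%, 35.3 to 60) and in none of the 10 more closed (upper bound of the interval 27.8%), against 3.04% of all members. Of the 314 members with B1 28 were more open in KO (8.92%, 6.24 to 12.6), and of the 10010 without B1 31 were (0.31%, 0.218 to 0.439). The regions open in both contexts had B1 in 10 of 27 more open regions (37.0%, 21.5 to 55.8). The median log2 fold change was 0.7 (0.35 to 1.11) with B1 and 0.58 (0.36 to 1.27) without. Of the 59 more open members 16 held the SOX string, 25 the KLF string and 11 the AP-1 string, and 4 belonged to F8, the B1 family. The KLF string was found in 36.6% of members with B1 (31.5 to 42.1) and 29.7% without (28.8 to 30.6), in 30.3% and 35.2% of regions open in both contexts, and in 31% and 31.7% of all distal Rep_Zeo peaks. For its stricter form the shares with and without B1 were 9.87% and 6.59% in members, 5.32% and 5.94% in regions open in both contexts, and 7.42% and 6.12% in all distal peaks. In the peak lists, where every member has a value, members with B1 had a median ratio of the KO to the control fold of 0.973, members without B1 0.97, and F1 members 0.989.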

How the data were processed

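Omni-ATAC-seq of 12 libraries was deposited as processed files. Per the labels and the methods of the study, the authors trimmed reads with Cutadapt, aligned them with BWA to GRCm38, removed duplicates, mitochondrial and blacklisted reads, merged the 3 replicates of each group, and ran MACS2 in broad mode once per group. Bedtools, SAMtools, Picard and FastQC are also named in the submitters' processing notes, with no versions given. For each peak the deposited lists hold a fold enrichment (a ratio) and a -log10 q. For KO against control the authors counted reads over the union of the peaks and tested them with DESeq2, and the deposited tables hold the raw count and the normalised count (a signal scaled by size factors) of each library at the 480 MEF and 1608 reprogramming intervals that passed their threshold. Their columns of log2 fold change, its error, the statistic and p-values were not used. The authors' mean over all 12 libraries was used to obtain MEF means at reprogramming intervals, after a check at the 70 intervals in both tables.

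Start sites were those of protein-coding transcripts in the GENCODE M21 annotation, and no peak passed a chromosome end of the reference. Strings were searched on both strands of the central 300 bp with Python 3.11.15, overlaps were found with bedtools 2.31.1 and families with blastn 2.17.0 (E-value 1e-20). B1 and B2 were searched in the central 600 bp and matched at an E-value under 1e-05 over at least 60 bases. Their consensus sequences were written by hand, and no repeat annotation was used. Counts at the listed reprogramming intervals were tested with edgeR 4.0.16 (quasi-likelihood) in R 4.3.3, using size factors recovered as raw over normalised counts (0.630 to 1.10), with adjustment over all 273256 intervals of the union and a threshold of 0.05, and with DESeq2 1.42.0 as an alternative. Replicate pairs had a chi-square of 1.13 to 1.37 per degree of freedom, so no library was treated as a repeat of another. No batch is given in the labels.

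Regions named were the 10 strongest members, up to 4 genes per gene list by the highest fold of a member within 50 kb, up to 10 more open and 10 more closed members by edgeR p, the 5 highest and 5 lowest fold ratios, those at the thresholds, and the 5 chains with most members; some regions under this rule are not reported here. The members and lists were chosen with earlier results of these data known. Alternatives were the fold and q minimums, the distance to genes, the window searched, repeat masking, and the scaling, tool, block and libraries of the count test.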

Additional observations from a re-analysis of the deposited data

How the results depend on the processing

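The number of members was 20124 with a fold minimum of 4 and 1735 with a minimum of 7, and between 9417 and 10324 under the other rules tried. Motif shares rose with the length searched. In windows of 150 bp, of 600 bp and over the whole peak they were 1.66%, 5.68% and 7.7% for the octamer, 19.4%, 47.7% and 56.1% for SOX, 17.0%, 45.8% and 53.9% for KLF, and 11.6%, 30.5% and 38.0% for AP-1. With a fold minimum of 7 they were 2.82%, 36.5%, 26.4% and 22.4%, and with bases masked as repeats left out 2.38%, 22.8%, 17.2% and 16.0%. After seeing the data, members with a relative were left out (octamer 3.51%, SOX 30.2%) and narrower strings were tried (CCATTGT 15.1%, CCTTTGT 15%, GGGTGTGG 6.69%). A stricter match (E-value under 1e-10, at least 100 bases) gave B1 in 1.91% and B2 in 1.11% of members. Composite, intron and ratio values moved by less than their error or not at all. Scaling ended the KO calls. With TMM over the listed intervals edgeR called 0 members more open (1 at an unadjusted p under 0.05) and 36 more closed, 26 of which were more open as reported, which follows from centring a list that moves nearly 1 way. With raw counts unscaled it called 0 and 0 (19 and 10 at an unadjusted p under 0.05), although every direction was kept and the cause was not tested. Requiring a log2 change of 1 or more kept 6 and 0. DESeq2 called 59 and 10, leaving out 1 library at a time gave 58 to 59 and 10 to 10, and the fit with the replicate block gave 59 and 10. All these fits used intervals that the authors had already listed, so they are no independent check of the calls. The replicate numbers share only a number by the rule used (same-number correlations of 0.04, 0.1 and 0.08, although every library correlated best with its own number), and the block changed no call. The depth of the merged reads behind each peak is not known here, which limits any comparison of fold between lists, and with counts held for listed intervals alone, members outside them could not be tested.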

Other observations

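Family F7 differed from the other large families in its place. All 32 of its members lay on chromosome 14, and 31 of them within 4.61 Mb at the start of that chromosome (chr14:3008659-7619743), where 38 members lay in all. Their folds ranged from 5.03 to 9.05 with a median of 7.05. The representative had 45 copies in the reference at a median identity of 98.0%, 32 of them in members. Of the 13 copies outside members 69.2% overlapped a Rep_Zeo peak and 7.69% a MEF_Zeo peak. The central 300 bp were not masked as repeats (median 0.0%) and held a SOX string in 3.12% of members. B1, searched in the wider central 600 bp, was matched in 43.8%. With copies this alike, reads cannot be assigned to 1 copy with certainty, and the number of separate open copies was not tested.

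Members were less dense on the X chromosome, at 2.11 per Mb (361 members), than on any autosome (3.14 to 4.97 per Mb). The regions open in both contexts showed a wider gap, with 0.778 per Mb on X and 2.29 to 3.19 per Mb on autosomes. The transgenic cells came from E14Tg2a ES cells, a male line with a single X, and the part of X copy number in these densities was not tested.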
